A study of Mus musculus with 3 samples.

Results

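Immediate early genes of the AP-1, EGR and NR4A families were followed in sorted natural killer (NK) cells from the lung and the blood of mice with and without injected tumor cells. The 10 genes, taken by symbol from the 25906 genes in the count tables, were Fos, Fosb, Jun, Junb, Jund, Egr1, Atf3, Nr4a1, Nr4a2 and Nr4a3. All 10 were found, and each was a single row. The mice were wild-type C57BL/6 females aged 9 weeks. The naive mice received no tumor cells, and the others received 100000 PyMT cells, a mammary tumor line that seeds the lung, into the blood either 6 h or 14 days before tissue was taken. This dose is that of the labels and of the study's sequencing methods, whereas a figure legend of the study names a larger one. From lung and blood, live cells positive for NK1.1 and NKp46 were sorted, marked with 1 of 2 hashtags by tissue, and loaded together as 1 library of droplet-based 3' single-cell RNA sequencing per time point. The hashtag of each tissue was taken from the order in which the study's methods name them. The study's text names several mice per time point in a single experiment, whereas the labels give no number, and the cells of single mice were not told apart in the tables.

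With 1 library per time point there was no replicate, so no test was made and no p-value is given. Counts of unique molecular identifiers (UMIs) were summed over the cells of each library and tissue and expressed as counts per 1000000 UMIs (CPM). The 95% intervals given in brackets cover counting error only, not the spread between mice. They are exact, except those of the difference between tissues in a log2 ratio over time, which use a normal approximation. Lung and blood cells shared a library and a run, but the lung was digested with enzymes at 37 °C whereas blood was lysed in the cold, so tissue and tissue processing cannot be told apart. Time point and library cannot be told apart either. Summed counts also do not separate more cells expressing a gene from more RNA per cell, which is why values per cell follow the summed levels.

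The 6 groups held 3676 lung and 4367 blood cells in the naive library, 4680 and 2746 cells at 6 h, and 3575 and 2069 cells at 14 days, with between 16936897 and 35922737 UMIs in sum and a median of 5909.5 to 7524.0 UMIs per cell. All 8 NK cell markers, among them Ncr1, Klrb1c and Gzma, were above 10 CPM in every group, with a summed level of 15596 to 22983 CPM. The 4 epithelial and tumor cell markers summed to between 0.453 and 1.95 CPM. ILC1 markers summed to 131 to 146 CPM in lung and 70.5 to 106 CPM in blood, and those of T, B, myeloid and endothelial cells to at most 94.2 CPM in any group. The ILC1 sum hid opposite differences. In naive and 14-day lung, Rora was at 116 and 67.7 CPM and Il7r at 22.2 and 32.4 CPM. Tmem176a was at 2.22 and 10.9 CPM and Tmem176b at 2.73 and 14.8 CPM. In naive and 14-day blood, Cxcr6 was at 2.57 and 15.3 CPM and Rora at 56.3 and 46.8 CPM. The 4 platelet and erythroid markers stayed at or below 0.334 CPM in 5 groups but reached 68.4 CPM in 14-day lung, nearly all of it hemoglobin RNA (Hbb-bs, Hba-a1). Their part in the results was not tested, but values in cells without a UMI of any marker of another cell type, which were 45.3% to 58.4% of the cells of a group, are given with the main comparisons. The ILC1 markers were not used in this filter, so cells with them were kept. Over the 6 groups Pecam1 was at 49.4 to 82.5 CPM and Ighm at 34.1 to 55.4 CPM, nearly all of the endothelial and B cell sums. Lyz2 made up most of the myeloid sum of 14-day blood. It was at 0.60, 44.9 and 89.3 CPM in naive, 6 h and 14-day blood, and at 3.37, 26.1 and 13.5 CPM in lung. A UMI of such a gene does not make a cell one of another type, and deeper cells are more likely to have one. The cells left out are therefore not a measure of contamination. At most 16 cell barcodes were shared by a pair of libraries. The estimated limit of RNA free in the suspension was 1.17% to 4.93% of the counts of a group. Each limit is the lowest over a few markers and rests on a single marker, with as few as 23 UMIs in free RNA. The counting error of those UMIs was not included, so the limit is approximate.

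Immediate early genes are transcribed within minutes of a signal without new protein being made first, and most of their transcripts are short-lived. Fos and Jun proteins pair through leucine zippers to form AP-1, which in lymphocytes works with NFAT at cytokine genes. Egr1 encodes a zinc finger factor induced through the MAP kinase pathway, and the orphan nuclear receptors Nr4a1, Nr4a2 and Nr4a3 follow calcium and antigen receptor signals and are known for restraining effector functions of chronically stimulated lymphocytes. Several of these genes are also known to be induced when tissue is dissociated with warm enzymes.

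All 10 genes were protein coding in GENCODE M21 (GRCm38). Fos lay on chromosome 12 (85473890 to 85477273, plus strand), Fosb on chromosome 7 (19302696 to 19310051, minus), and Jun on chromosome 4 (95049034 to 95052222, minus) as a gene of 1 exon. Junb (84974484 to 84978718, minus) and Jund (70698949 to 70700616, plus) were both on chromosome 8. Atf3 lay on chromosome 1 (191170296 to 191218039, minus), Nr4a1 on chromosome 15 (101254269 to 101274795, plus), Nr4a2 on chromosome 2 (57106830 to 57124003, minus) and Nr4a3 on chromosome 4 (48045153 to 48086447, plus).

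Promoter sequences were matched for 9 of the 10 genes in the RefSeq table (build GRCm38.p6), and 5 are shown because most of the results below turn on Fos, Fosb and the NR4A genes. Each is the stretch upstream of the RefSeq start on the gene's own strand, cut back where GENCODE annotated an exon, which left 98 bases for Nr4a3. The RefSeq start of Nr4a1 lay 12577 bases from the GENCODE gene start, so that its window is that of an internal start. Capitals mark motifs searched on both strands: the core TGACG of the cAMP response element (CRE, bound by CREB and ATF proteins), the EGR site GCGTGGGCG or GCGGGGGCG, and the TATA box TATAAA. 
Fos (chr12:85473640-85473889, plus strand): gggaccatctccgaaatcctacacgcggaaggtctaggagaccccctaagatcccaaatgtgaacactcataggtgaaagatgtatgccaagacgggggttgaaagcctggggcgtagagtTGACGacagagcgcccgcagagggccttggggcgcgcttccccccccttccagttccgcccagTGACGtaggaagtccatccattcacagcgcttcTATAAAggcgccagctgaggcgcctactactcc
Fosb (chr7:19310052-19310295, minus strand): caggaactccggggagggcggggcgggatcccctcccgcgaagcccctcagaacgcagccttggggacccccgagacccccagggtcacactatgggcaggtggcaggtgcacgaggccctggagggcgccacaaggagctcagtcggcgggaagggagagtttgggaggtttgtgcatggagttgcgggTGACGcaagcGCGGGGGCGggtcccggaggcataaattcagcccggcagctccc
Nr4a1 (chr15:101266596-101266845, plus strand): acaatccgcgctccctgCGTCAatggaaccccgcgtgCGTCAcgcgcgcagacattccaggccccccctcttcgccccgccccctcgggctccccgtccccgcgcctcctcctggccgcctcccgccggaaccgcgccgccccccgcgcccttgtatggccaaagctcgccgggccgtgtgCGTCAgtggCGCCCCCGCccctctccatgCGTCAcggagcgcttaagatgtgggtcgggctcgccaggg
Nr4a2 (chr2:57124004-57124253, minus strand): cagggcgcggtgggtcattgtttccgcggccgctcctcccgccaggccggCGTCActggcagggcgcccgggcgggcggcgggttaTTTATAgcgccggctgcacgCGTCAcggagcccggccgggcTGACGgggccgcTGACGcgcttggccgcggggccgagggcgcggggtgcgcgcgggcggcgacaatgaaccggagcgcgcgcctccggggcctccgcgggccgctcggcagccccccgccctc
Nr4a3 (chr4:48045055-48045152, plus strand): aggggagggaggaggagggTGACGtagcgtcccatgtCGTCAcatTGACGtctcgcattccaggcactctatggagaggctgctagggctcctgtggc

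The CRE core was present within 250 bases upstream in 7 of the 9 genes, against 17.8% of the 32851 promoter windows in the table. Nr4a1, Nr4a2 and Nr4a3 held 4 copies each, 1 of those of Nr4a3 lying past the stretch shown, and Fos held 2, at 129 and 66 bases before the start. An EGR site was present in Fosb and Nr4a1 (3.06% of all windows), and the letters TATAAA in Fos and Nr4a2 (12.4%). In Fos they lay 33 bases before the start on the gene's own strand, and in Nr4a2 164 bases before it on the opposite strand. The full CRE TGACGTCA (1.55%), the AP-1 site TGACTCA (4.46%) and the CArG box (1.47%) were not found in these windows. Only exact matches within 250 bases were searched, so variant sites and sites further upstream would have been missed. The RefSeq starts of Jund and Atf3 lay 1210 and 34706 bases from the gene starts in GENCODE. The CRE core is part of the full CRE. These matches are descriptions of letters, and no binding was measured.

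In lung over blood, 9, 9 and 10 of the 10 genes were higher in lung in the naive, 6 h and 14-day libraries, and only Egr1 was lower, in the naive and 6 h libraries. The median log2 ratio of the 10 genes was 1.98, 2.05 and 2.42 in turn, beside -0.09, -0.10 and -0.11 for all genes that reached 10 CPM in lung or blood. The 10 genes were chosen with earlier results of these data known, so the shares of all genes set beside them are a description and not an independent comparison. In the naive library 7 of 10 genes were past 2-fold higher in lung and 1 was past 2-fold lower, where 3.28% and 0.585% of all 8212 such genes were. At 6 h, 7 of the 9 genes above 10 CPM were past 2-fold higher and none was lower (3.07% and 0.428% of all genes), and at 14 days 8 of 10 were higher and none lower (2.94% and 0.494%). The lower gene was Egr1, close to the threshold at -1.02, and it was within 2-fold in cells without a heat shock UMI (-0.94), when centred on the median of all genes (-0.95), without the 5% of cells with most UMIs (-0.98) and with the wider cell filter (-0.99). In cells without a UMI of any marker of another cell type the medians were 1.76, 2.12 and 2.58. In cells without a heat shock UMI, that is of Hspa1a, Hspa1b or Dnajb1, they were 2.13, 2.22 and 2.40. These cells were 58.3% of 14-day lung cells and up to 72.8% of the cells of a group, in naive blood.

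**Figure D1:**
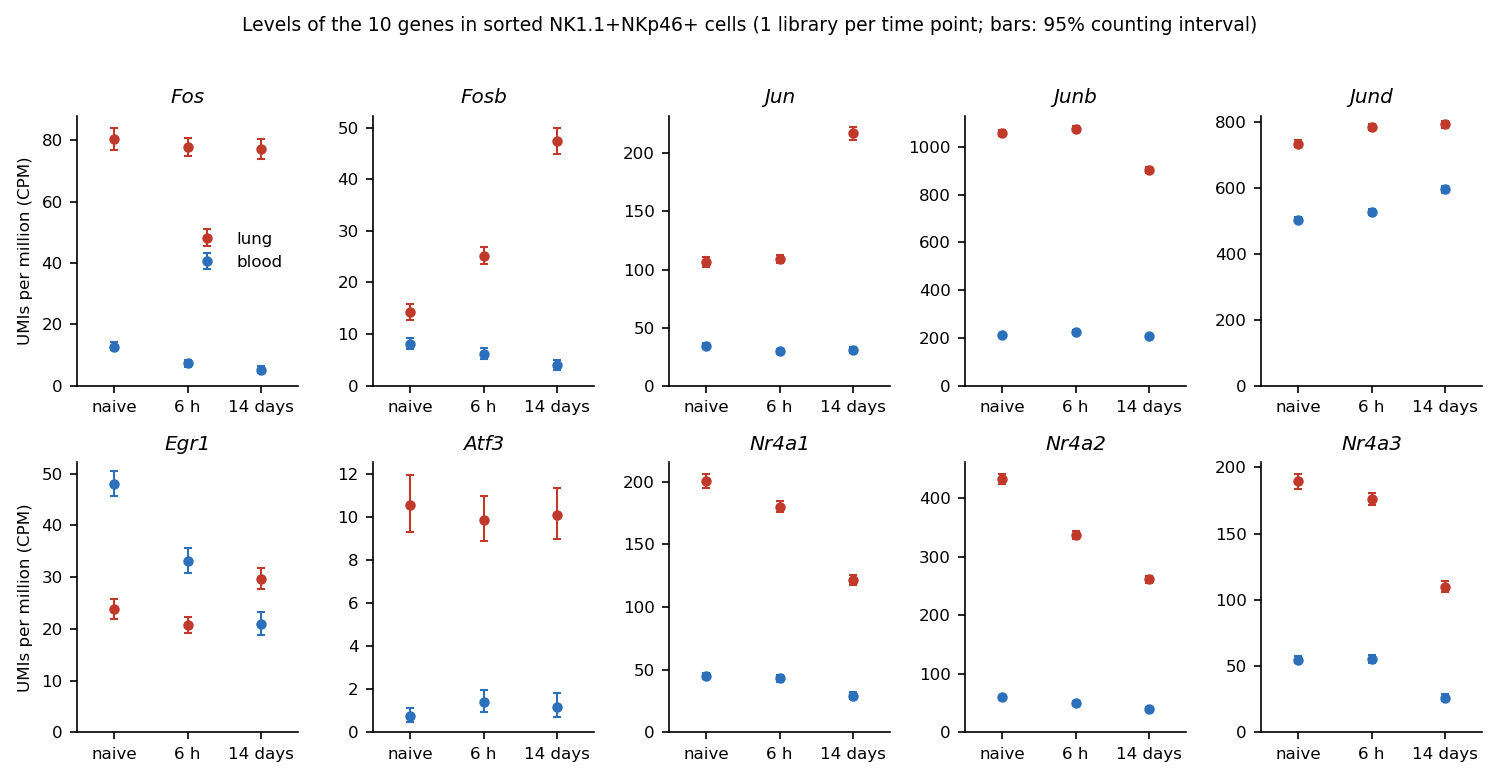
Level of each gene in CPM (y axis, linear, from 0) in the naive, 6 h and 14-day libraries (x axis), for lung (red) and blood (blue) cells; bars are 95% counting intervals and each point is 1 library and tissue. Lung points lie above blood points for every gene except Egr1 in the naive and 6 h libraries.

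Fos proteins bind DNA mainly in pairs with Jun proteins. Fos RNA was at 80.3 CPM in naive lung and 12.8 CPM in naive blood, at 77.9 and 7.29 CPM at 6 h, and at 77.0 and 5.14 CPM at 14 days. The 3 lung levels overlapped in their intervals, whereas blood was lower in each tumor-bearing library. Lung over blood was thus 6.28-fold [5.63 to 7.03] in the naive library, 10.7-fold [9.11 to 12.6] at 6 h and 15.0-fold [12.1 to 18.8] at 14 days. Fosb, which is closely related to Fos, was at 14.2, 25.2 and 47.3 CPM in lung and at 8.11, 6.11 and 3.96 CPM in blood. It was the only gene of the 10 with its lung levels in the order naive, 6 h, 14 days without overlap of intervals and with higher values later, and its ratio of lung to blood was 1.76-fold [1.48 to 2.08], 4.12-fold [3.44 to 4.98] and 11.97-fold [9.36 to 15.5].

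Of the genes of the Jun proteins, Jun encodes the classical activating partner of Fos. Its RNA was at 106, 109 and 217 CPM in lung and at 34.3, 29.6 and 30.8 CPM in blood. Naive and 6 h lung overlapped, and 14-day lung stood above both. Junb, often an antagonist of Jun, was at 1058, 1075 and 904 CPM in lung and 211, 225 and 207 CPM in blood, a ratio of 5.02-fold [4.89 to 5.16], 4.78-fold [4.64 to 4.92] and 4.37-fold [4.22 to 4.53]. Jund, which is present in resting cells, was at 733, 785 and 793 CPM in lung and 503, 527 and 595 CPM in blood. Its ratio of 1.46-fold, 1.49-fold and 1.33-fold was the smallest of the genes that were higher in lung in the naive and 6 h libraries. Atf3, a stress-induced partner of Jun proteins, was at 10.6, 9.88 and 10.1 CPM in lung and at 0.767, 1.40 and 1.18 CPM in blood, where it rested on 23, 31 and 20 UMIs. Its ratio was 13.8-fold [8.97 to 22.1], 7.04-fold [4.87 to 10.5] and 8.57-fold [5.44 to 14.2], and the 3 intervals overlapped.

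All 3 NR4A receptors were higher in lung in every library. Nr4a2 was at 432, 337 and 261 CPM in lung and 59.7, 50.2 and 39.9 CPM in blood, and its ratio stayed between 6.56-fold and 7.24-fold. Nr4a1 was at 200.5, 180 and 122 CPM in lung and 44.6, 43.2 and 29.3 CPM in blood. Nr4a3 was at 190, 176 and 110 CPM in lung and 54.8, 55.4 and 26.2 CPM in blood. Each receptor was lowest at 14 days in both tissues, and the ratio of lung to blood of Nr4a1 was 4.14-fold to 4.50-fold and that of Nr4a3 3.18-fold to 4.20-fold.

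Egr1 had the opposite order. It was at 23.8 CPM in naive lung and 48.1 CPM in naive blood, 20.7 and 33.2 CPM at 6 h, and 29.7 and 21.0 CPM at 14 days. Blood exceeded lung by 2.02-fold in the naive library and 1.60-fold at 6 h, and lung exceeded blood by 1.42-fold [1.25 to 1.61] at 14 days. Egr3, a related zinc finger factor, was at 6.65 CPM in naive lung and 20.9 CPM in naive blood, and at 15.2 and 13.9 CPM at 14 days. Among the other EGR genes and their corepressors, 1 of the 3 above 10 CPM was past 2-fold lower in lung in the naive and 6 h libraries and none at 14 days. The corepressors Nab1 and Nab2 had mean log2 ratios of -0.12 and -0.50 over the 3 libraries.

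**Figure D2:**
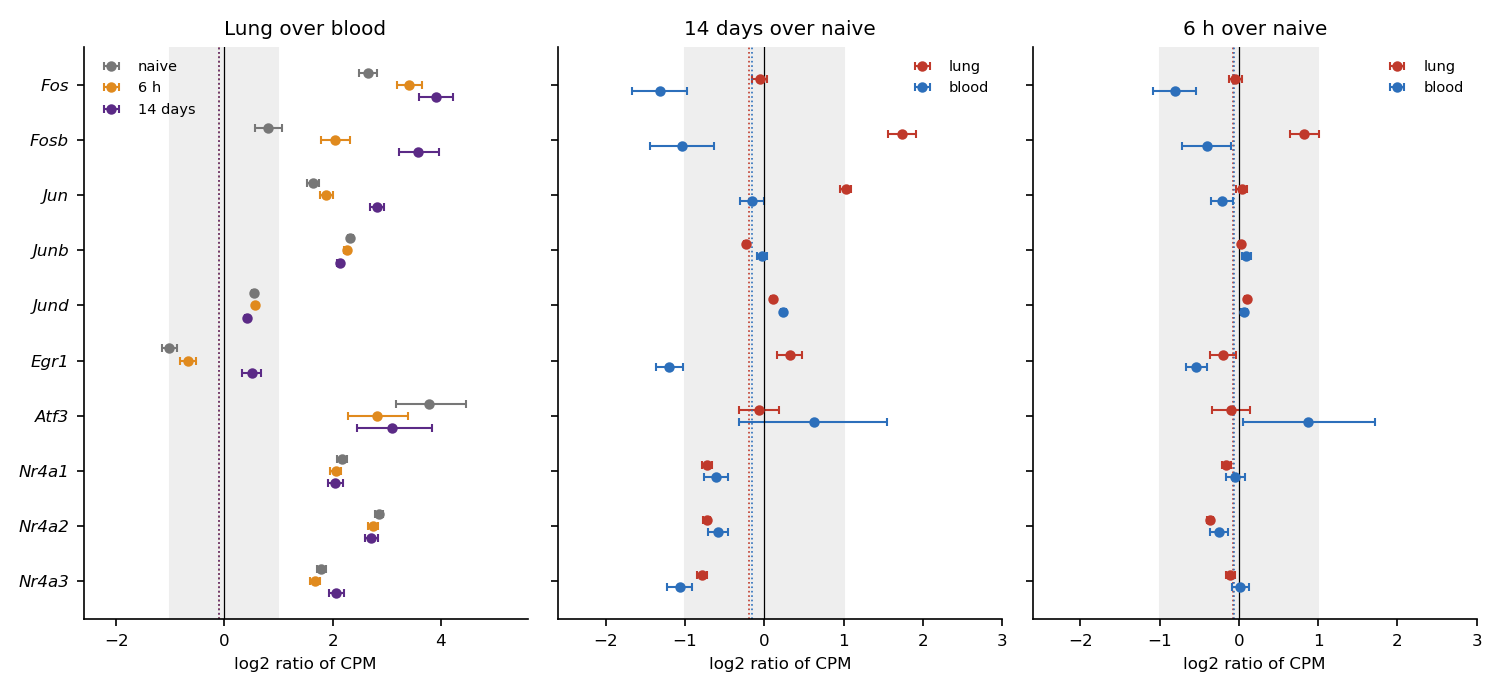
Log2 ratio of CPM (x axis) for each gene (y axis) in lung over blood (left), 14 days over naive (middle) and 6 h over naive (right), with 95% counting intervals as bars; the grey band spans 2-fold in either direction and dotted lines mark the median of all genes above 10 CPM. Egr1 moves from -1.02 to 0.50 in lung over blood, and Fosb and Jun are past 2-fold in lung at 14 days.

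Related lists, also chosen with earlier results of these data known, were described by their counts. Of 27 other immediate early genes that reached 10 CPM, out of 31 listed, 16 were past 2-fold higher in lung and none was lower in each of the 3 libraries, with medians of 1.17, 1.25 and 1.28. The largest mean log2 ratios were those of Dusp1 (4.35), a phosphatase that switches off MAP kinases, and Sik1 (3.51), a kinase gene induced by cAMP, and the smallest those of Dusp6 (-0.27) and Mcl1 (-0.13). Of the other AP-1 and ATF members, 1 of 9, 1 of 9 and 2 of 10 were past 2-fold higher, led by Fosl2, a Fos relative, with 175 CPM in naive lung and 26.4 CPM in naive blood and followed, among the genes above 10 CPM in lung or blood of all 3 libraries, by Mafk with a mean log2 ratio of 0.70, while Atf7 (-0.36) and Batf (-0.16) had the smallest mean log2 ratios. The second at 14 days was the small Maf protein gene Maff, at 25.7 CPM in lung and 1.83 CPM in blood, named after its value was seen.

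The genes that relay signals to these promoters were MAP kinases, ternary complex factors, CREB, MEF2 and NFAT. At the RNA level their median log2 ratios of lung over blood were -0.05, -0.08 and 0.01, beside -0.09, -0.10 and -0.11 for all genes. None of 24 was past 2-fold in either direction in any of the 7 comparisons. Of all genes, only 2.94% to 3.28% were past 2-fold higher in lung over blood, so this count does not set the list apart. Their mean log2 ratios of lung over blood reached from -0.56 for Rps6ka1 and -0.55 for Elk3 to 0.48 for Mef2d and 0.54 for Mapk9. Of the NK cell activation products, 1 of 9 was past 2-fold lower in naive lung (Tnfsf14, log2 ratio -1.54) and 1 of 9 past 2-fold higher at 14 days (Xcl1, 1.30). Tnfrsf9 (0.73) and Ifng (0.64) had the largest mean log2 ratios of that list, and Nfkbid (-0.16) the second smallest.

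Heat shock genes, which respond to unfolded protein and also to handling, were past 2-fold higher in lung for 0 of 8, 0 of 8 and 2 of 10 genes above 10 CPM. Their medians were 0.17, 0.17 and 0.21. Among the 8 genes above 10 CPM throughout, the largest mean log2 ratios were those of Dnaja1 (0.34) and Hsp90aa1 (0.27), and the smallest those of Hspa8 and Hsp90ab1 (both 0.11). The genes past 2-fold at 14 days were Hspa1a, at 22.1 CPM in lung and 0.649 CPM in blood, and Hspa1b, at 41.9 and 1.00 CPM, both named after their values were seen. In 14-day lung, 15.6% of cells had a UMI of Hspa1a or Hspa1b, against 0.595% to 2.14% in the other 5 groups. The part of heat shock in the contrasts was not tested, and values without such cells are given below for 14-day lung.

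The question of what differed after tumor cell injection was addressed within each tissue. In lung, Fosb and Jun were past 2-fold higher at 14 days than in naive mice, where 1.73% of all 8108 genes above 10 CPM were, and none of the 10 was past 2-fold lower (1.84% of all genes). Fosb had a log2 ratio of 1.73 [1.56 to 1.91] and Jun of 1.03 [0.96 to 1.097]. Nr4a1 (-0.72), Nr4a2 (-0.72) and Nr4a3 (-0.79) were lower by between 1.65-fold and 1.72-fold, while Fos (-0.06) and Atf3 (-0.06) had intervals that held 0. The median of all genes was -0.19 in this comparison, and that of the 10 genes -0.06. In cells without a marker of another cell type, Fosb was at 1.83 and Jun at 1.17, and Egr1, which was at 0.32 over all cells, was at 0.02. There, Nr4a3 was past 2-fold lower at -1.07 [-1.18 to -0.95], whereas Nr4a1 (-0.68) and Nr4a2 (-0.71) were not. Jun was within 2-fold in cells without a heat shock UMI (0.83), and just under 2-fold without the 5% of cells with most UMIs (0.999) and with free RNA subtracted (0.996).

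In blood, 3 of the 8 genes above 10 CPM were past 2-fold lower at 14 days than in naive mice, against 0.136% of all 8117 genes, and none was past 2-fold higher (0.123%). These were Fos at -1.31 [-1.67 to -0.98], Egr1 at -1.20 [-1.37 to -1.03] and Nr4a3 at -1.07 [-1.22 to -0.91]. Nr4a1 (-0.60) and Nr4a2 (-0.58) were lower within 2-fold. Fosb, which stayed under 10 CPM in blood, had a log2 ratio of -1.03, and Jund was slightly higher at 0.24. The median was -0.59 for the 10 genes and -0.15 for all genes. Relative to a centre of all genes 1 of the 3 genes was past 2-fold, Fos at -1.11, while Egr1 was just under 2-fold lower (-0.997) and Nr4a3 at -0.87. Nr4a3 was also within 2-fold, at -0.95 to -0.98, under 4 other alternatives, namely without the 5% of cells with most UMIs, after thinning, as a mean over cells, and with mitochondrial and ribosomal protein genes out of the totals. In cells without a marker of another cell type the values were further from 0, at -1.75 [-2.03 to -1.47] for Nr4a3, -1.55 for Egr1, -1.55 for Fos, -0.95 for Nr4a1, -0.89 for Nr4a2 and -0.65 for Jun, with a median of -0.92.

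Hence the 2 tissues differed for part of the genes. The log2 ratio of 14 days over naive was larger in lung than in blood by 2.77 [2.34 to 3.20] for Fosb, 1.52 [1.29 to 1.75] for Egr1, 1.25 [0.91 to 1.60] for Fos and 1.19 [1.02 to 1.35] for Jun, with intervals from counting alone. For Nr4a1 it was -0.12 [-0.28 to 0.04] and for Nr4a2 -0.14 [-0.28 to -0.01]. Over all cells both receptors were thus lower at 14 days by nearly the same amount in either tissue. For Nr4a3 it was 0.28 [0.12 to 0.45], for Junb -0.20 [-0.27 to -0.14] and for Jund -0.13 [-0.18 to -0.08]. In cells without a marker of another cell type, Nr4a1 was at -0.68 in lung and -0.95 in blood. Nr4a2 was at -0.71 and -0.89 there. The comparisons at 6 h and 14 days share the naive cells.

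At 6 h none of the 10 genes was past 2-fold in lung or blood over all cells. In lung, 0.0624% of all 8007 genes were past 2-fold higher and 0% lower, and in blood 0.0739% and 0.0123% of 8114 genes. Fosb was nevertheless at 0.83 [0.64 to 1.01] in lung, above 99.8% of all genes, and Nr4a2 at -0.36 [-0.40 to -0.32]. In blood, Fos was at -0.81 [-1.08 to -0.54] and Egr1 at -0.54 [-0.67 to -0.41]. Fos in blood was past 2-fold lower in cells without a marker of another cell type (-1.43 [-1.92 to -0.97]) and with free RNA subtracted (-1.29). In those cells Egr1 in blood was at -0.79 and Jun at -0.46, and the median was -0.34 in blood and -0.02 in lung, where Fosb was at 0.66 and Nr4a2 at -0.37. Atf3 in blood, which stayed under 10 CPM, was at 2.04 there on 16 and 6 UMIs. Over all cells, Jun, Junb and Jund lay between -0.21 and 0.10 in both tissues.

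Of the lists, 3 of 27 other immediate early genes were past 2-fold higher in 14-day lung (Myc 1.28, Dusp2 1.18 and Cd69 1.05) and 4 past 2-fold lower (Crem -1.35, Klf2 -1.28, Rgs2 -1.13 and Dusp5 -1.01). These genes, and those in the rest of this paragraph, are named because few passed, after their values were seen. Among other AP-1 and ATF members Maff was higher (2.03), at 25.7 against 6.31 CPM, and Fosl2 lower (-1.01), out of 10. Egr3 was higher (1.19), as were Xcl1 among the activation products (1.67) and Hspa1a (4.26) and Hspa1b (3.71) among the heat shock genes. In blood at 14 days, and in both tissues at 6 h, no gene of the 6 lists was past 2-fold. At most 0.136% of all genes were past 2-fold in each direction there, so the lists were near the share of all genes.

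How the counts were spread over cells differed between the tissues. In lung, the median cell had a UMI of 4 of the 10 genes in each library, and 42.3% to 46.0% of cells had 5 or more. In blood the median was 2 genes, and 4.16% to 6.30% of cells had 5 or more. Junb and Jund were found in most cells of every group: Junb in 90.4% to 93.5% of lung and 65.9% to 70.9% of blood cells, and Jund in 89.8% to 96.6% of cells of all groups. By the approximate limit given above, free RNA could by itself give a UMI of Junb to at most 34.6% of cells of a group and of Jund to at most 19.4%.

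For the inducible genes the shares were lower. Nr4a2 was found in 73.3%, 69.1% and 56.2% of lung cells and in 18.9%, 20.9% and 17.5% of blood cells, and, as the share expected after thinning each cell to 3000 UMIs with the 6 to 86 shallower cells of a group left out, in 58.1%, 49.9% and 38.4% against 10.6%, 10.5% and 8.32%. Fos was found in 25.8% to 28.9% of lung and 3.33% to 4.40% of blood cells, where free RNA could give at most 2.22% by the same limit. Nr4a1 was found in 51.0%, 49.2% and 35.1% of lung and in 10.99%, 11.9% and 8.31% of blood cells, where the limit from free RNA reached 8.58% at 6 h. The Fosb share in lung was 5.71%, 10.8% and 21.7% in time order.

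Egr1 had nearly the same share of cells in both tissues of the naive library, 9.87% in lung and 8.11% in blood, although its summed level was 2.02-fold higher in blood. If its UMIs had been spread evenly over cells by depth, 27.6% of naive blood cells would have had one. The observed share over this even share was 0.294 in naive blood and 0.708 in naive lung. For Nr4a1 it was 0.424 and 0.734, and for Nr4a3 0.362 and 0.667, whereas Jund stood between 0.95 and 0.98 in all groups. In naive blood, the 5% of cells with most UMIs of the gene held 90.4% of the Egr1, 80.4% of the Nr4a1 and 82.6% of the Nr4a3 UMIs, against 67.9%, 33.8% and 35.3% in naive lung. In the naive library a small share of blood cells thus carried most of the counts of these 3 genes, and in lung the counts were spread more widely. The share held by the top 5% also depends on how many cells have a UMI of the gene at all. For Nr4a1 these were 10.99% of naive blood and 51.0% of naive lung cells. At 14 days the top 5% held 94.1%, 86.1% and 86.9% of the UMIs of the 3 genes in blood and 79.3%, 44.7% and 52.4% in lung. Egr1 was then found in 5.99% of blood cells. The observed over even share of Egr1 was then 0.385 in blood and 0.481 in lung, closer together than in the naive library.

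**Figure D3:**
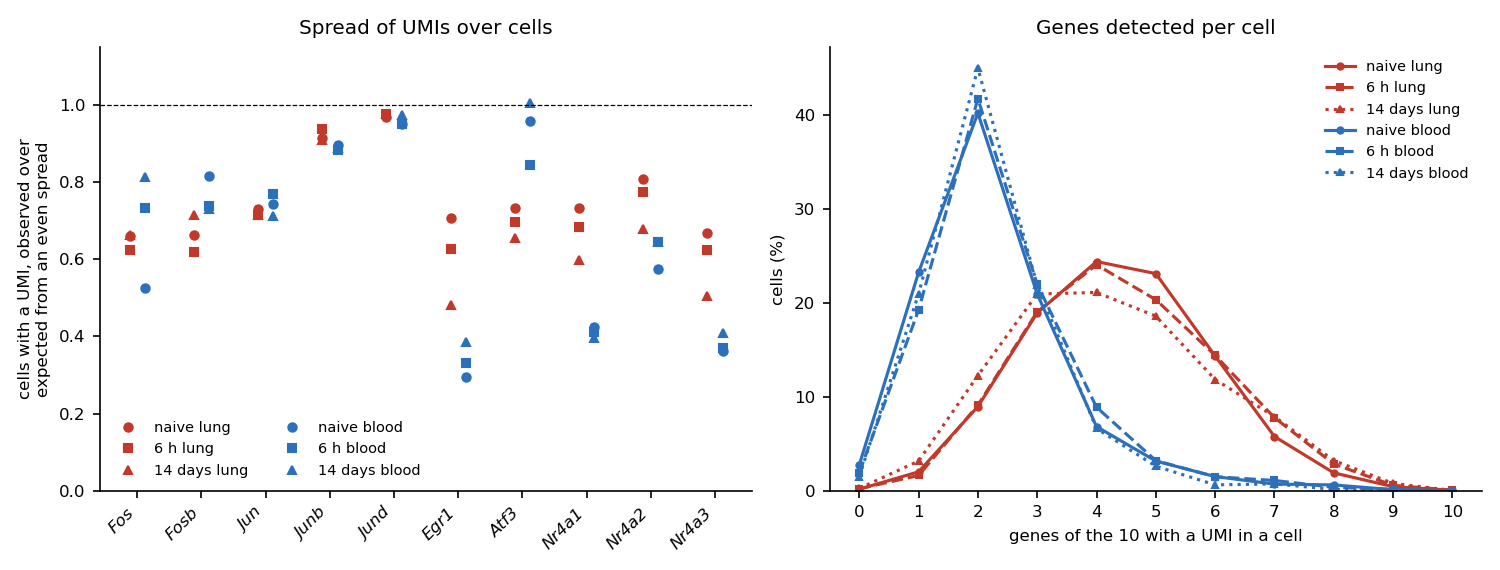
Left: share of cells with a UMI of each gene (x axis) divided by the share expected from an even spread of its UMIs (y axis, dashed line at 1). Right: share of cells (%, y axis) by the number of the 10 genes with a UMI (x axis), for the 6 groups; Egr1, Nr4a1 and Nr4a3 lie lowest in blood (blue), and lung cells (red) centre on 4 genes against 2 in blood.

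Genes whose level followed the mean of the 10 genes across single cells were ranked over 7874 genes by the mean correlation in the 6 groups, which the cells of a library share with their depth. Ccl4 was first with a mean Pearson r of 0.41, followed by Ccl3 (0.38), both chemokines released by activated NK cells. Then came Nfkbia (0.37), Nfkbid (0.36), Litaf (0.34), Kdm6b (0.33), Tnfaip3 (0.32), Gadd45b (0.32), Ier2 (0.31) and Nfkbiz (0.30), of which Nfkbia, Nfkbid, Tnfaip3 and Nfkbiz are feedback regulators of NF-kB. For Ccl4 the correlation was 0.52 to 0.56 in blood and 0.25 to 0.32 in lung.

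Among the 45 pairs of the 10 genes, which share libraries and depth, the mean r over the 3 libraries exceeded 0.2 for 7 pairs in lung and 13 in blood. The highest in blood were those of Nr4a1 with Nr4a3 (0.57 in blood, 0.36 in lung), Egr1 with Nr4a1 (0.50 and 0.19), Nr4a2 with Nr4a3 (0.46 and 0.29) and Nr4a1 with Nr4a2 (0.45 and 0.29). Fos with Fosb reached 0.24 in lung and 0.20 in blood. Atf3, which is sparse, stayed at 0.07 or below with every other gene.

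**Figure D4:**
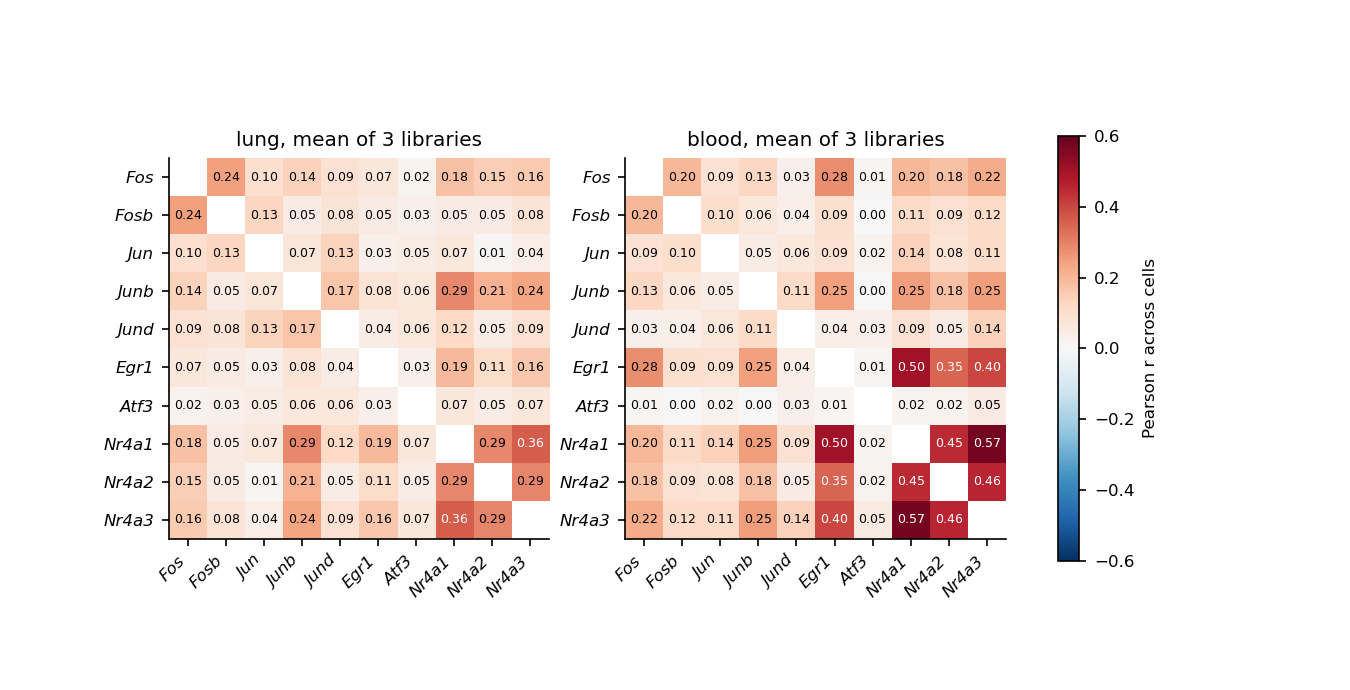
Pearson r across cells between the 10 genes (both axes) as the mean of 3 libraries, in lung (left) and blood (right), on log counts per 10000; colour runs from -0.6 (blue) to 0.6 (red). The block of Egr1, Nr4a1, Nr4a2 and Nr4a3 is redder in blood, where r lies between 0.35 and 0.57, than in lung.

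Cells were split at the 10% with the highest share of Ccl4 counts in each group. Ccl4 was chosen because it correlated most with these same 10 genes, and more so in blood than in lung, so that the contrasts between and within the fractions are in part fixed by that choice and are given as a description. In blood, this fraction held 68.7% of the Egr1, 73.2% of the Nr4a1 and 75.9% of the Nr4a3 UMIs of the naive library. The cut is by rank within a group, so the fractions of lung and blood need not hold the same Ccl4 level. In naive blood the level was 19.1-fold higher there than in the other cells for Egr1, 23.8-fold for Nr4a1, 27.4-fold for Nr4a3, 11.4-fold for Fos and 10.9-fold for Nr4a2. In naive lung the same ratios were 3.14-fold, 2.63-fold, 2.37-fold, 1.22-fold and 1.61-fold. Jun and Jund differed by 1.49-fold to 2.03-fold between the fractions in both tissues of the naive and 6 h libraries and in blood at 14 days.

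In the cells outside the Ccl4-high fraction, all 10 genes were higher in lung in all 3 libraries with intervals above 0, and the median log2 ratio was 2.98, 2.69 and 3.16. There, Nr4a1 was at 174 CPM in naive lung and 13.3 CPM in naive blood, a ratio of 13.0-fold, and Egr1 was at 19.8 and 16.8 CPM, so that it was slightly higher in lung (log2 ratio 0.24 [0.04 to 0.43]). In the Ccl4-high fraction the median was 0.51, 1.26 and 1.54. Nr4a3 was at 397 CPM in naive lung and 403 CPM in naive blood there, and at 413 CPM in both tissues at 6 h. Egr1 was at 62.1 CPM in naive lung and 320 CPM in naive blood, and blood exceeded lung 5.16-fold. This split of the tissue comparison was chosen after values were seen.

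**Figure D5:**
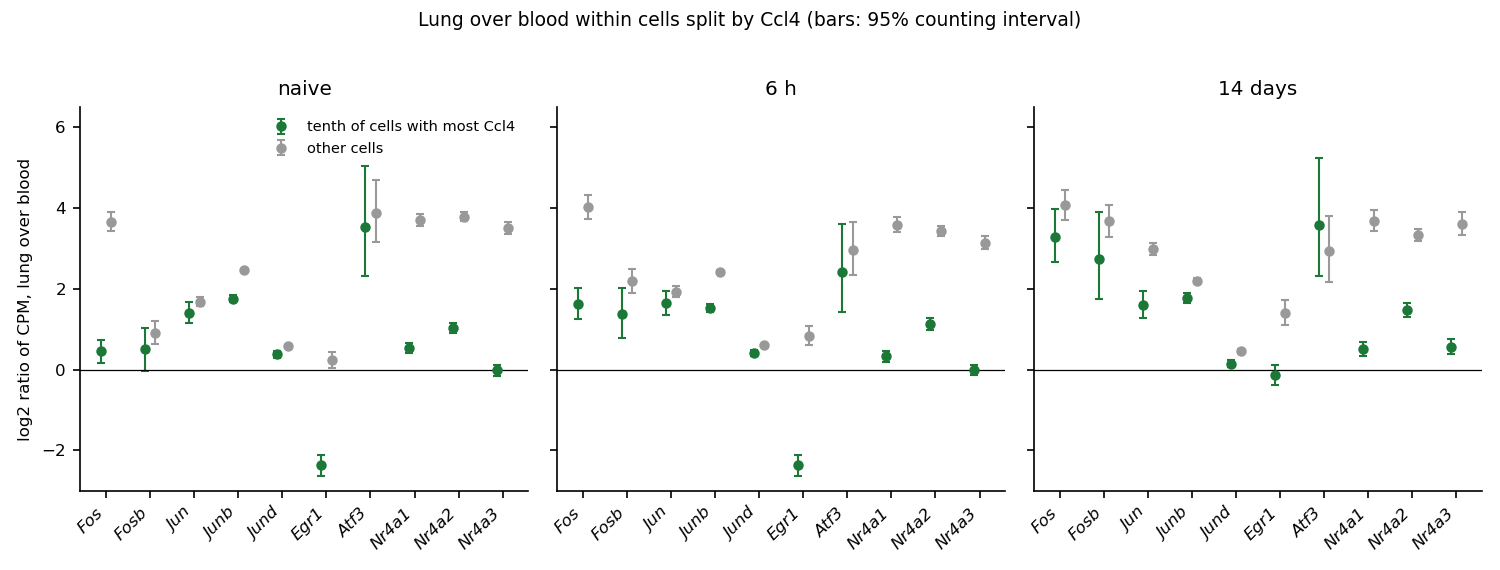
Log2 ratio of CPM in lung over blood (y axis) for each gene (x axis) in the naive, 6 h and 14-day libraries, for the 10% of cells with the highest share of Ccl4 counts (green) and the other cells (grey); bars are 95% counting intervals. Grey points lie above 0 for all genes, and green points for Egr1 lie at -2.37 and -2.36 in the naive and 6 h libraries; Ccl4 was chosen for its correlation with these genes.

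In 14-day lung, Fosb and Jun were lower in the Ccl4-high fraction than outside it, at 35.4 against 48.6 CPM for Fosb and 170 against 222 CPM for Jun. Egr1 (131 against 19.3 CPM) and Atf3 (35.4 against 7.52 CPM) were higher there, as were the 3 NR4A receptors by between 2.23-fold and 3.12-fold.

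Maturation was read from UMIs of Cd27, carried by less mature NK cells, and Itgam (CD11b), carried by mature ones. A class with 1 of the genes only can include cells in which the other gene was missed. Cells with both or neither are not described here. Cells with Cd27 only made up 6.53%, 8.68% and 13.5% of lung cells in time order, and cells with Itgam only 61.6%, 57.0% and 47.0%. Fosb was at 41.2 CPM in Cd27-only and 10.5 CPM in Itgam-only cells of naive lung, 3.91-fold higher, and at 65.4 and 37.6 CPM at 14 days, 1.74-fold higher. The Fosb level of Itgam-only lung cells was thus also higher at 14 days than in the naive library. Fos was at 139 against 70.5 CPM and Nr4a3 at 275 against 181 CPM in naive lung. Jun was at 110 and 104 CPM, with an interval of the ratio that held 1. In blood, Nr4a2 was higher in Itgam-only cells, at 66.5 against 46.6 CPM in the naive library and 41.2 against 19.4 CPM at 14 days. At 6 h it was at 54.6 and 51.2 CPM, with an interval of the ratio that held 1. Fosb (7.16 against 12.7 CPM) and Jun (32.9 against 44.2 CPM) were lower in Itgam-only cells of naive blood. Junb (224 against 175 CPM) and Egr1 (58.3 against 48.2 CPM) were higher there, Egr1 with a log2 ratio of 0.28 [0.003 to 0.56] whose interval nearly reached 0. In lung, Junb was instead lower in Itgam-only cells. It was at 1035 against 1215 CPM in the naive library, 1045 against 1185 CPM at 6 h and 909 against 946 CPM at 14 days.

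Further, 14-day lung cells were split by genes that marked part of that group, a choice made after values were seen. Cells with a UMI of Pmepa1 or Itga1, a target of TGF-beta signalling and an integrin of tissue-resident lymphocytes, made up 48.5% of 14-day and 14.5% of naive lung cells. Fosb was at 55.5 CPM with and 37.9 CPM without such a UMI. In cells without one, the log2 ratios over such cells of naive lung were 1.46 [1.24 to 1.68] for Fosb, 0.94 [0.86 to 1.03] for Jun and -0.97 for Nr4a3. Jun was thus under 2-fold there. A cell without a UMI can still express these genes, and such cells of 14-day lung were shallower, with a median of 6599 against 7562 UMIs. The part of Pmepa1 or Itga1 cells in the contrast was not tested.

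Cells with a UMI of Hspa1a or Hspa1b had 357 CPM of Jun against 189 CPM in the rest of 14-day lung, and less Nr4a1 (53.7 against 135 CPM), Nr4a3 (38.3 against 124 CPM) and Junb (530 against 978 CPM). Without these cells, 14 days over naive in lung was 1.79 [1.61 to 1.98] for Fosb and 0.83 [0.76 to 0.90] for Jun on the log2 scale, and -0.57, -0.62 and -0.63 for Nr4a1, Nr4a2 and Nr4a3. Jun was then under 2-fold.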

How the data were processed

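Droplet-based 3' single-cell RNA sequencing of 3 libraries was analysed, 1 per time point, each holding hash-tagged lung and blood cells. The deposited matrices hold raw UMI counts per gene and barcode, made by the authors with Cell Ranger (7.0.1 per the extract protocol, 7.1.0 per the file headers) against GRCm38.p6, with no filter on barcodes, and the processing notes name Seurat 5.0. Barcodes with 800 to 5000 genes and at most 6% mitochondrial counts, the study's filter, were kept, which left 8385, 7584 and 5785, and a tissue was given where 1 hashtag held at least 90% of tag counts. The 342, 158 and 134 barcodes with both tags and 7 with none were left out. No doublet caller was run, so doublets within a tissue remain.

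Counts were summed per library and tissue and divided by total UMIs (CPM). Intervals are exact Poisson for levels, exact binomial conditional on both counts for ratios, and Clopper-Pearson for shares, at 95%. Those of the difference between tissues in a log2 ratio over time use a normal approximation on the log scale. A gene counted as past 2-fold where it reached 10 CPM in the higher group, and a gene at 0 was set to 3 counts. There is no test, since each group is 1 library. Free RNA was taken from barcodes with at most 100 counts, and its limit is the lowest upper limit over markers of other cells with at least 20 such counts. Correlations used log counts per 10000. Named genes are the 10 members and, from each list, those 2 at either end of the order by mean log2 ratio of lung over blood. The members and lists were chosen with earlier results of these data known. Gene positions are from GENCODE M21 and promoter windows from RefSeq. The interval and ratio code was tested on counts drawn from the Poisson model that the intervals assume. That test checks the code and not whether the intervals hold for UMIs that gather in few cells. Python 3.11.15, numpy 2.4.6, scipy 1.17.1 and pandas 2.3.3 were used. The alternatives were other filters on cells, other hashtag thresholds, other totals and scalings, the value expected after thinning to 3000 UMIs without shallower cells, subtraction of free RNA, and cells without other markers or heat shock counts.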

Additional observations from a re-analysis of the deposited data

Results flagged for a closer look

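The results below stand out because a log2 ratio had opposite signs in lung and blood, or at different time points, with counting intervals on opposite sides of 0. With 1 library per group the differences were not tested between animals. The intervals also leave out the spread between cells, so their position relative to 0 is a description only. Fosb at 6 h over naive was at 0.83 in lung and -0.41 in blood, and at 14 days over naive at 1.73 and -1.03. Jun at 14 days over naive was at 1.03 in lung and -0.16 in blood, the latter with an interval that ends close to 0. Egr1 at 14 days over naive was at 0.32 in lung and -1.20 in blood. Lung over blood for Egr1 was at -1.02 in the naive library and -0.68 at 6 h but 0.50 at 14 days.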

How the results depend on the processing

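No paired analysis was possible because each time point is 1 library with no replicate. Of 77 values of the median of the 10 genes under alternatives, 74 stayed within a band spanned by the counting intervals of the middle pair of genes. This band also holds the gap between that pair, so it is wider than counting error. For lung over blood in the naive library it ran from 1.71 to 2.26. The medians of lung over blood stayed within 1.76 to 2.13 (naive), 1.97 to 2.28 (6 h) and 2.35 to 2.58 (14 days). The exceptions were 14 days over naive, at 0.19 in lung and -0.39 in blood when centred on the median of all genes, and at -0.92 in blood in cells with no marker of another cell type. Of 770 values of single members, 611 stayed within their interval, 156 left it with the same sign or an interval that held 0, and 3 reversed. Jun at 14 days over naive in blood (0.0439) and Junb at 14 days over naive in lung (0.0269) reversed when centred, and Junb at 6 h over naive in blood with free RNA subtracted (-0.029).

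Counts of genes past 2-fold, main values 317, 286 and 278 for lung over blood, 289 and 21 for 14 days over naive in lung and blood, and 5 and 7 for 6 h, depended on the filter. With at least 50 CPM they were 182, 165, 127, 131, 5, 1 and 0, and with no filter 3529, 3228, 3361, 3856, 2781, 2411 and 3131. When centred, they were 35 for 14-day blood and 9 for 6 h lung, and with mitochondrial and ribosomal protein genes out of the totals 33 and 8.

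Of 1771 values of other named genes, 1522 stayed within their interval and 19 reversed. When centred these were Nab1 in lung over blood, naive (0.0142), Mcl1 at 14 days in blood (0.11) and at 6 h in lung (0.0258) and blood (0.0239), Sik1 at 6 h in lung (0.00015), Elk3 at 14 days in lung (0.17), and Hsp90aa1 (0.0109) and Hsp90ab1 (0.12) at 14 days in blood. In cells with no marker of another type these were Dusp6 (0.0505) and Tnfsf14 (-0.0247) at 6 h in blood, Elk3 (0.0363), Hspa8 (-0.0246) and Hsp90ab1 (-0.16) at 14 days in lung, and Hsp90ab1 in lung over blood at 6 h (-0.0483). With the other totals they were Elk3 at 14 days in lung (0.10) and Hsp90ab1 at 14 days in blood (0.00644). Hsp90ab1 at 14 days in lung also reversed without the 5% of cells with most UMIs (-0.00742), as a mean over cells (-0.0583) and as the value expected after thinning (-0.0595). The cause was not tested. Levels of Atf3 in blood, at 20 to 31 UMIs, are limited by depth.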
